A study of Mus musculus with 8 samples.

Results

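Me1 and Me3 encode the NADP-dependent malic enzymes of the cytosol and of the mitochondrion, and they are described here in ileal RNA of mice after duodenal-jejunal bypass (DJB) or sham surgery. Both were chosen by their DJB against sham difference, since the study lists them among its most changed mRNAs, Me1 as higher and Me3 as lower. Each is read here from 1 probe, so the account covers 2 of the 90752 transcript probes on the array. They are MOUSELNCRNA_17841 for Me1 and MOUSELNCRNA_20564 for Me3. The scanner files pair no probe with a gene, and the names came from the study's supplementary list, as explained in the processing notes. Because the choice used the same 8 arrays, every value of the pair below is a description and carries no test.

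The mice were male C57BL/6 and were fed a high-fat diet for 12 weeks from an age of 6 weeks. Animals that had become diabetic were then randomized to DJB, in which intestinal flow is rerouted past the duodenum and upper jejunum, or to sham surgery, which is a laparotomy without rerouting. All 8 animals thus shared strain, sex, diet and diabetes up to surgery, and tissue was taken 2 weeks after surgery from 4 mice per group. By that time, the study reports, weight, fasting glucose, insulin and glucose tolerance had improved in the DJB group compared with sham. The groups therefore also differed in metabolic state when the tissue was taken. The labels name the ileum as the tissue but their extraction text names the duodenum, and no marker gene of either segment could be read from the unnamed probes. Each mouse had its own one-colour array. One slide carried every sham array and a second slide every DJB array, so that slide and surgery cannot be told apart for any value given here.

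Malic enzymes convert malate to pyruvate and carbon dioxide. The cytosolic enzyme Me1 reduces NADP to NADPH in this step, and that NADPH serves fatty acid synthesis and the reduction of glutathione. Me3 carries out the same reaction inside mitochondria, while the third member of the family, Me2, is mitochondrial and works mainly with NAD.

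The oligonucleotides on the array are shown because a feature of the Me3 probe recurs in the results. Both are 60 bases long and are written 5′ to 3′ as the scanner files give them. Capitals mark each copy of the word TCTCCC, which the Me3 probe holds at bases 4 and 28 and the Me1 probe does not hold.
Me1 probe: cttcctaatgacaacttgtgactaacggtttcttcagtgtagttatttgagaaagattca
Me3 probe: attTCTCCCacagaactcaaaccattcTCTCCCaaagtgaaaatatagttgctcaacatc
The study's list places Me1 on chromosome 9 and Me3 on chromosome 7. Where in the transcript each probe lies, in exon or UTR, is not given in the sources used here. No other probe of the array shared a stretch of 16 bases with either of them on either strand. A probe at another place of the same transcript would not be found this way. Whether the array holds further probes for Me1 or Me3 is therefore not known, and Me2 was not analysed here.

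Me1 signal was higher in every DJB mouse than in any sham mouse. Values are relative log2 signals, that is, log2 of the processed intensity minus the 75th percentile of the same array, so that 0 is the level of a fairly bright probe and 1 unit is a doubling. In the sham group Me1 stood at 0.80, 0.65, 1.42 and 1.32 in mice 1 to 4. In the DJB group it stood at 5.75, 5.74, 4.48 and 5.10. The lowest DJB mouse, mouse 3, was 3.07 above the highest sham mouse. The group means were 1.05 ± 0.38 (SD, n = 4) for sham and 5.27 ± 0.61 (SD, n = 4) for DJB. The difference between the group means was 4.22 with a standard error of 0.36 on the log2 scale, which corresponds to an 18.7-fold higher signal. In whole tissue, more transcript per cell and more cells that carry the transcript cannot be told apart. Whether the signal of each probe comes from its named transcript alone was not tested.

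Me1 was printed at 2 places on each array, which gives a technical repeat within each mouse. The spots differed by at most 0.08 on any array. Taken alone, the first gave a difference of 4.21 and the second 4.23. All 16 spot readings of Me1 were well above background, none was saturated and none carried an outlier flag. Processed intensities ran from 651 to 1108 on the sham arrays and from 7424 to 18798 on the DJB arrays.

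Me3 signal lay lower in every DJB mouse than in any sham mouse, with a narrower gap than for Me1. It was measured by a single spot, and the scanner software flagged that spot as non-uniform on all 4 sham arrays and on no DJB array. The values given here keep the flagged spots, since without them no sham value would remain. They are signals of the probe, which may not measure Me3 mRNA alone. Other probes, picked by the same flag on the sham arrays, fell by a like amount, as given further on. In the sham group Me3 stood at 2.71, 1.69, 1.75 and 2.37 in mice 1 to 4. In the DJB group it stood at -1.48, 0.12, 0.42 and -1.52. Sham mice 2 and 3 were close to each other and below sham mice 1 and 4, whereas DJB mice 1 and 4 were close to each other and far below DJB mice 2 and 3. The group means were 2.13 ± 0.49 (SD, n = 4) for sham and -0.61 ± 1.03 (SD, n = 4) for DJB. The difference between the group means was -2.74 with a standard error of 0.57, a 6.70-fold lower signal, and the gap between the nearest mice of the groups was 1.28. Intensities ran from 1372 to 2712 on the sham arrays and from 121 to 456 on the DJB arrays, and the spot was well above background on all 8.

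**Figure D1:**
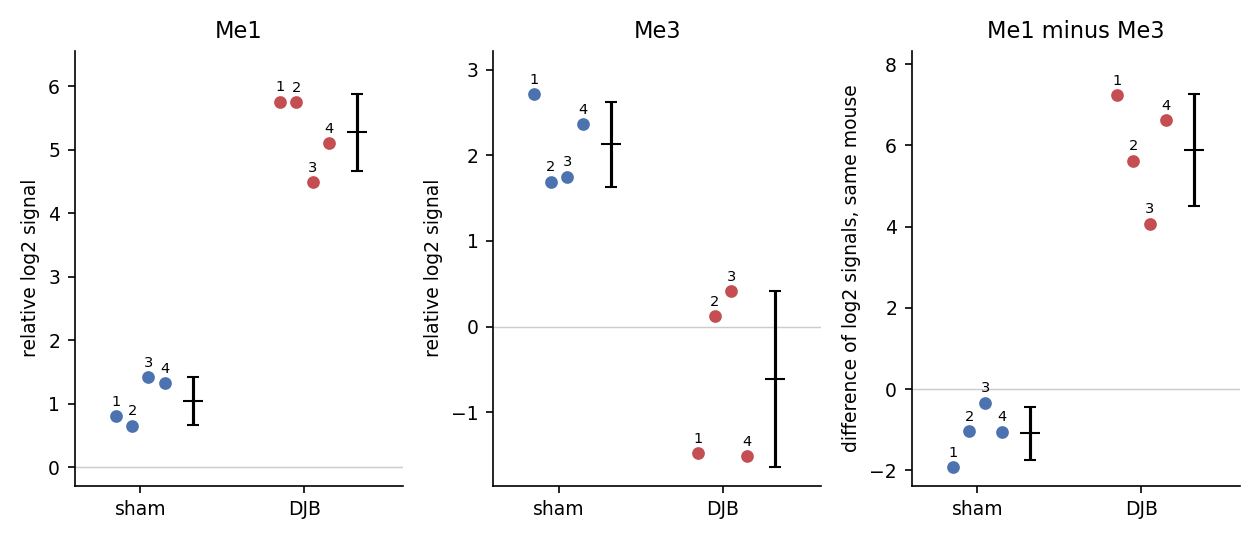
Relative log2 signal of Me1 and of Me3, and the difference Me1 minus Me3, in each mouse. Points are mice with their replicate number, and bars are group means ± SD of 4 mice. Me1 is higher and Me3 lower in all 4 DJB mice than in any sham mouse, and the DJB mice of Me3 fall into a pair near -1.5 and a pair between 0.12 and 0.42.

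Among the 64408 probes tested with limma, 1.29% were called higher and 2.30% lower after DJB. A call required an adjusted p under 0.05 by Benjamini-Hochberg and a change of 2-fold or more. Since the pair was chosen on this contrast, nothing is read from these shares for Me1 or Me3. With no minimum fold change, 14238 probes were called higher and 9321 lower. How many tested probes separated the groups without overlap, as Me1 and Me3 did, was not counted. Nothing is read from that separation either. In size, 6 tested probes had a larger rise than Me1. With flagged spots kept for every probe, as for Me3, 56 of 64435 other probes that were well above background on all arrays of a group had a larger fall than Me3. The median difference over all tested probes was 0.08. Of all calls 64.1% were lower, and this share was 89.1% with no scaling between arrays and 92.1% with spike-in scaling, which moved the median difference to -0.21 and -0.28.

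The log2 ratio of Me1 to Me3 within a mouse does not change when each array is scaled by a single factor, as was done here. Since probes differ in how they hybridize, only its change between mice can be read and not its size. In the sham mice it was -1.92, -1.04, -0.33 and -1.05. In the DJB mice it was 7.23, 5.62, 4.07 and 6.62. Every DJB value was above every sham value, with 4.40 between the nearest mice. The group means were -1.08 ± 0.65 (SD, n = 4) and 5.88 ± 1.38 (SD, n = 4), and their difference was 6.97 with a standard error of 0.76. Of this difference, the Me1 probe gave 4.22, and the Me3 probe fell by 2.74. DJB mouse 3 had both the lowest Me1 and the highest Me3 of its group and thus the smallest ratio, and DJB mouse 1 had the largest.

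**Figure D2:**
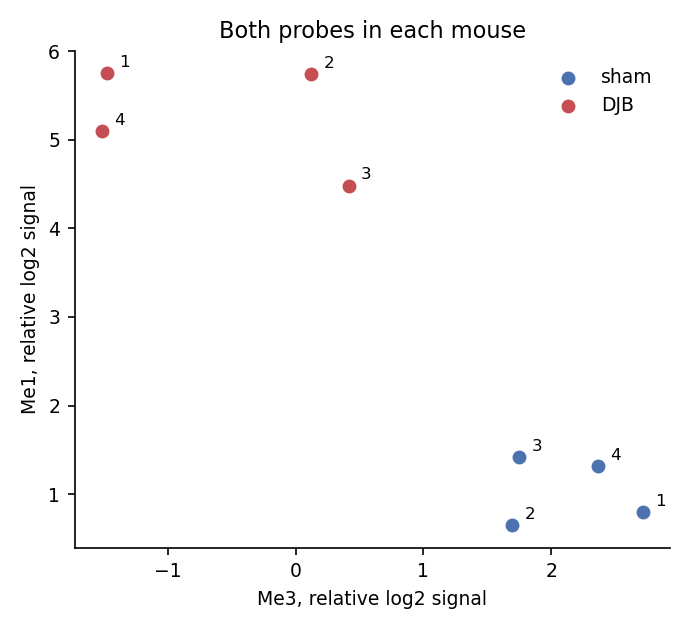
Me1 against Me3 in each of the 8 mice, both as relative log2 signal, with replicate numbers. The sham mice lie at the lower right and the DJB mice at the upper left, with DJB mouse 3 nearest to the sham group on both axes.

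The arrays of a slide occupied 4 places, each of which held 1 sham and 1 DJB array, so that the difference can be read within a place. Within the places Me1 was higher in the DJB mouse by 4.42, 3.83, 4.95 and 3.68. Me3 differed by -2.25, -1.28, -4.19 and -3.26 in the same order. The direction was the same in every place for both probes, while the size for Me3 varied over a range wider than its mean difference. The ratio differed by 6.67, 5.11, 9.14 and 6.95.

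The pixels within the Me3 spot were unusually uneven on the sham arrays. The pixel SD was 50.1%, 57.5%, 68.7% and 45.0% of the mean pixel intensity in sham mice 1 to 4. Spots of like brightness on the same array, within 0.25 log2 units, had medians of 9.88% to 10.5%, and at least 99.7% of them were more even than the Me3 spot on each array. On the DJB arrays the Me3 spot was at 23.9%, 24.0%, 25.2% and 20.9%, against medians of 12.5% to 17.9% for spots of like brightness. For Me1 this spread was 14.5% to 24.9% on the sham arrays and 13.9% to 20.1% on the DJB arrays. The Me1 spots were thus also less even than the median spot, but none was flagged. Of the spots of like brightness, 78.6% to 99.6% were more even than Me1 on the sham arrays and 85.7% to 99.5% on the DJB arrays. For Me3 on the DJB arrays this share was 81.9% to 99.8%.

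**Figure D3:**
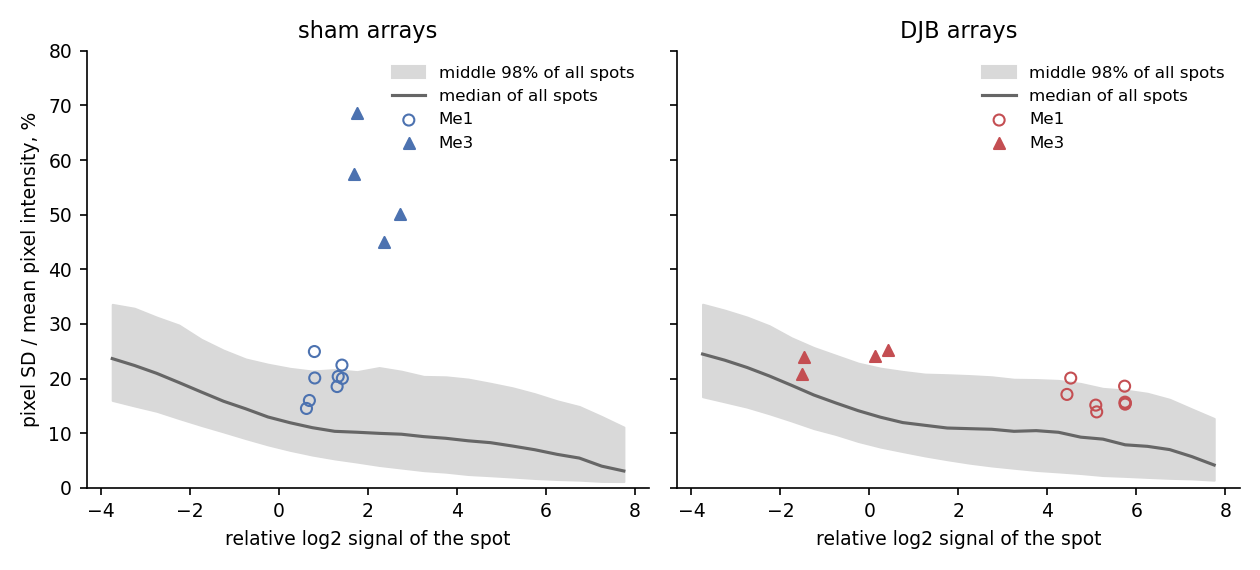
Unevenness of each spot, given as the pixel SD in percent of the mean pixel intensity, against the relative log2 signal of the spot, on the sham arrays and on the DJB arrays. The line is the median and the band the middle 98% of all transcript spots, circles are the Me1 spots and triangles the Me3 spot. The Me3 triangles of the sham arrays lie between 45.0% and 68.7%, far above the band. Those of DJB mice 2 and 3, at 24.0% and 25.2%, lie slightly above it, as do some Me1 circles.

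The area around the Me3 spot was ordinary. Of its 24 nearest spots none carried a flag on any array. Their median pixel spread was 19.1% on the sham arrays and the largest was 28.2%, below every sham value of Me3. Their differences between the groups lay between -0.88 and 0.42, with a median of 0.11. The neighbours of both Me1 spots, 24 each, carried no flag either and had median differences of 0.08 and 0.05.

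The mean and the median of the pixels gave a similar fall for Me3. The mean was 1.20, 1.14, 1.47 and 0.98 times the median pixel in sham mice 1 to 4, and 1.02 to 1.09 times in the DJB mice. With the median pixel in place of the mean, the difference of Me3 was -2.53 and that of Me1 was 4.30.

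The flag of the Me3 spot was rare on these arrays and more frequent on the sham slide. Of the 176026 transcript spots, 72 to 125 carried it on each sham array, at most 0.071% of them, and 18 to 40 on each DJB array. On all 4 sham arrays together it recurred in 42 spots of 29 probes, Me3 included, and 19 of these spots had no flag on any DJB array. On all 4 DJB arrays together the flag recurred in 4 spots, 3 of which also carried it on all sham arrays. The 41 spots other than Me3 that recurred on the sham arrays came from 28 probes. Of these spots, 40 were lower by more than 1 log2 unit in the DJB group. Their median difference was -2.63, with a range of -4.03 to -0.91. The fall of Me3, -2.74, lay close to the median of these spots. The set was picked through the sham arrays alone, which could by itself favour lower DJB values, so this likeness is a description. Of the 18 other mRNAs on the study's list of most changed mRNAs, none carried the flag on any array, 1 was also measured by a single spot, and none held the word TCTCCC in its probe.

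All 28 probes that shared the recurring flag with Me3 held the word TCTCCC, and in all 28 its first copy began at base 10 or earlier. The word was picked after these values were seen, and its part in the fall of Me3 was not tested. It was searched as written in the probe, counting the first copy from the 5′ end, and 2.01% of the tested probes held it, which is 1294 probes. Me3 itself was not among the tested probes, since its flagged spots left it without sham values there, and the flagged spots of other probes were left out as well.

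The difference between the groups varied with the base at which the word began. In the 91 tested probes with a start at bases 1 to 5, where the first copy of the Me3 probe lies, the median difference was -0.56 and 26 were called lower, 28.6% of them, with 0 called higher. In the 126 probes with a start at bases 6 to 10 the median was -0.23 and 27 were called lower, 21.4%. These shares can be read against 2.30% of all tested probes called lower. Only 2 tested probes held, like the Me3 probe, 2 or more copies with the first at bases 1 to 10. Their median difference was -0.35, and 0 were called lower.

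Further along the probe the shift was smaller at bases 11 to 20 and no longer seen from base 21 on. With a start at bases 11 to 20 the median of 258 probes was -0.11 and 4.65% were called lower. With a start at bases 21 to 30, where the second copy of the Me3 probe lies, the median of 211 probes was 0.15 and 0.474% were called lower. With a start at bases 41 to 55 the median of 399 probes was 0.23 and 0.251% were called lower. Probes without the word had a median of 0.08, as did all tested probes.

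**Figure D4:**
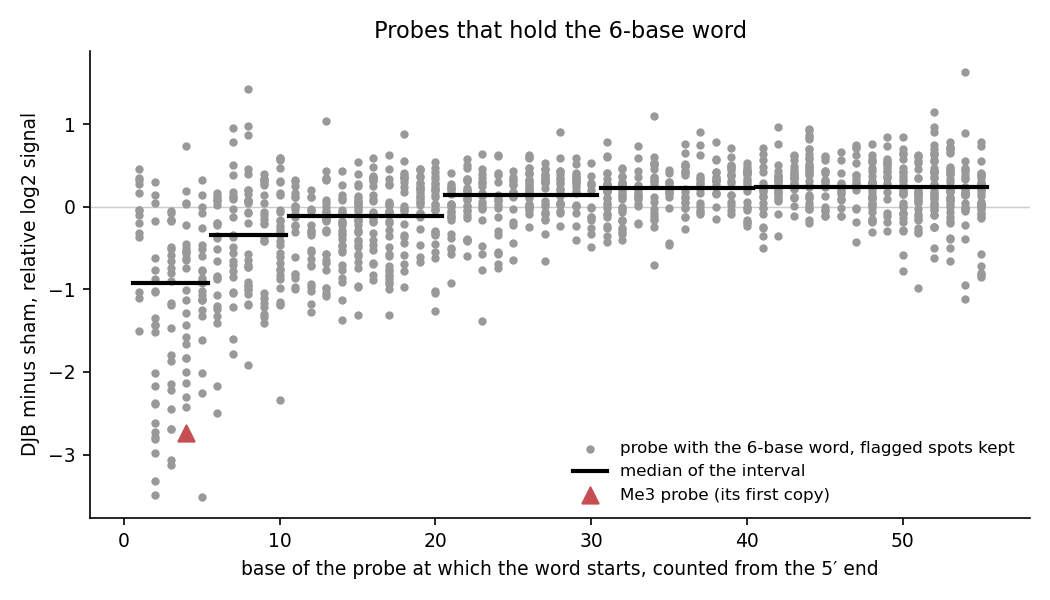
Difference between DJB and sham, as relative log2 signal, against the base at which the word TCTCCC first begins in the probe, counted from the 5′ end. Grey points are 1319 other probes that hold the word, black lines are medians of the intervals, and the triangle is the Me3 probe, with flagged spots kept for every probe. Medians rise from -0.92 at bases 1 to 5 to 0.24 at bases 41 to 55, and 9 of the 113 probes in the first interval lie below the Me3 probe.

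To set Me3 beside these probes on like terms, the flagged spots were kept for all of them. The median difference of 113 probes with the word at bases 1 to 5 was then -0.92, and 9 of them, 7.96%, fell more than Me3, against 0.0869% of all 64435. All 9 were among the 28 that shared the recurring flag, which had a median of -2.42 and a range of -3.51 to -0.88 by probe. The fall of Me3 thus lay within the range of these 28 probes, which were picked by their flag on the sham arrays. The flag marked 25 of the 91 tested probes with a start at bases 1 to 5 on at least 1 sham array, or 27.5%, against 0.141% of all tested probes. On at least 1 DJB array it marked 13 of the same 91 probes, against 30 of all 64408 tested probes. Of 103 probes that held the reverse complement, GGGAGA, at bases 1 to 5, 0 were called lower, and their median difference was 0.03. At bases 1 to 10, 7 of 210 were called lower, or 3.33%, with a median difference of 0.06. For TCTCCC at bases 1 to 10 the share called lower was 24.4%. Among the 2935 words of 6 bases that began at bases 1 to 5 in at least 30 tested probes, TCTCCC had the lowest median difference and the highest share of probes called lower. The word was picked on probes that fell on these same arrays, so its rank is a description. Other words rich in C came next by median, CCCCTC with -0.24 and CTCCCC with -0.18, against -0.56 for TCTCCC. Of the probes with CTCTCC there, 12.3% were called lower. How many probes these words share with TCTCCC was not counted. In all, 53 of the 1482 probes called lower, 3.58%, held TCTCCC at bases 1 to 10, so most lower calls did not.

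The spread of Me3 between mice of one group ran in parallel with these probes. From its group mean, Me3 deviated by 0.58, -0.44, -0.38 and 0.24 in sham mice 1 to 4. The median deviation of the 28 other probes with the recurring flag was 0.84, -0.43, -0.46 and 0.30. In the DJB mice Me3 deviated by -0.86, 0.73, 1.03 and -0.90 and the other probes by -0.35, 0.48, 0.30 and -0.42. The sign was the same in 8 of 8 mice.

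The median of the 91 probes with the word at bases 1 to 5 had the sign of Me3 in 8 of 8 mice as well. The median of probes with the word at bases 41 to 55 had it in 3 of 8. Me1 deviated by -0.25, -0.40, 0.37 and 0.27 in the sham mice and by 0.48, 0.47, -0.79 and -0.17 in the DJB mice, and its sign matched that of the flagged probes in 4 of 8. Deviations within a group add up to 0 and the probes share arrays and the word, so these counts are a description.

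**Figure D5:**
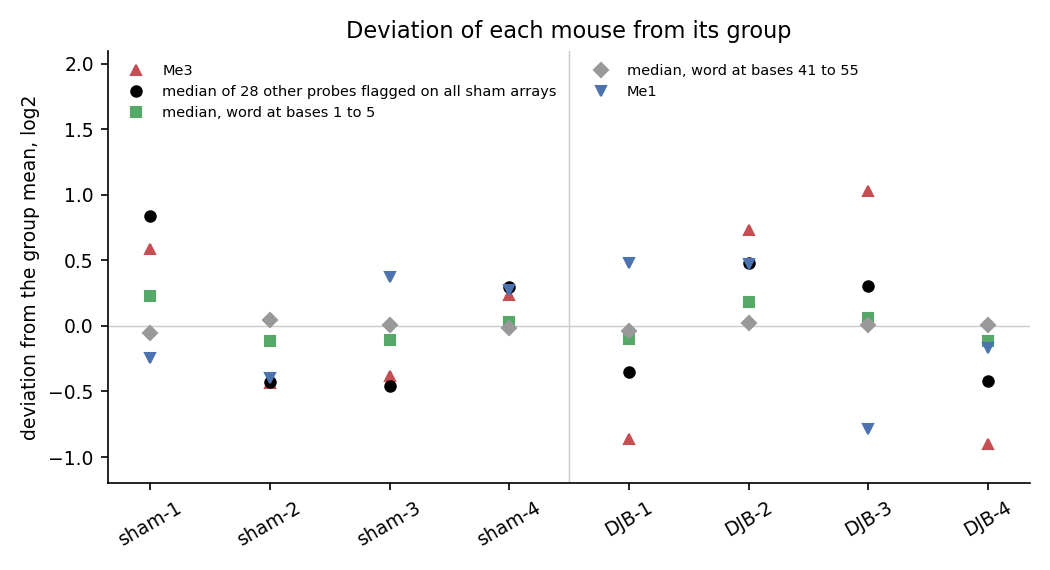
Deviation of each mouse from the mean of its group, on the log2 scale, for Me3, Me1 and 3 sets of probes, of which the median is shown. Me3 and the 28 other probes flagged on all sham arrays lie on the same side of 0 in every mouse, whereas Me1 lies on the other side in 4 mice.

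Of the probes whose values followed the members most closely over the 8 mice, 2 are given for each member. For Me1 the closest were MOUSELNCRNA_29084, which could not be named, with a Pearson r of 0.999 and a difference between the groups of 0.72, and MOUSELNCRNA_79944, with 0.997 and 3.56. The latter matched the lncRNA NONMMUT070309 on the study's list of most changed lncRNAs, which places it on chromosome 9 like Me1, and it was thus chosen on these samples too. For Me3 they were the unnamed MOUSELNCRNA_62976, with 0.996 and -0.39, and the unnamed MOUSELNCRNA_3851, with 0.995 and -0.24. Such r values rest largely on the difference between the groups, and a high r came with small as well as large differences. Of the 100 probes closest to Me3, 14 held the word TCTCCC at bases 1 to 10, against 0.337% of all tested probes and 3.58% of those called lower. Of the 100 closest to Me1, 0 held it there. Closeness rests largely on the group difference, and the word was picked on probes that fell. Both counts are therefore descriptions.

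Among other genes of malate and lipid metabolism, few had a named probe. Of 36 genes known as PPAR-alpha targets in fatty acid oxidation, 3 could be named, all from the study's list of most changed mRNAs and so chosen on these samples as well. PPAR-alpha is a nuclear receptor for fatty acids, and Me1 is also known as one of its targets in rodent liver. Cyp4a31, a member of the family of fatty acid omega-hydroxylases, was higher by 3.48 with a standard error of 0.67. Its relative Cyp4a32 was well above background on 4 of 4 DJB arrays but on 2 of 4 sham arrays, so no fold is given for it. Acaa1b, a thiolase of peroxisomal fatty acid oxidation, was higher by 3.66 with a standard error of 0.59. Cyp4a31 and Cyp4a32 are closely related, and how far each probe reads the other gene was not tested. In all 3 genes DJB mouse 3 was the highest of its group, at 4.97, -0.08 and 7.13, whereas for Me1 it was the lowest. Whether PPAR-alpha has a part in any of these differences was not tested. No probe of the other NADPH-producing enzymes, of malate and citrate cycling, of fatty acid synthesis or of the NRF2 targets could be named.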

How the data were processed

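Total RNA of 8 ileal samples (4 sham, 4 DJB) was labelled with Cy3 and hybridized to one-colour Agilent arrays. The deposited scanner files give a processed intensity for every spot, made by the authors with Agilent Feature Extraction, background-subtracted and detrended but not scaled between arrays (version 12.0.3.1 per the file headers, 11.0.1.1 per the labels' processing notes), and a table of log2 values whose normalization is not given in the sources used here. Each array held 176026 spots of 90752 transcript probes, 85274 of them printed in duplicate.

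Log2 of the processed intensity was taken, control and outlier-flagged spots were left out except the Me3 spot, spots of a probe were averaged, and the 75th percentile of the array was subtracted. That percentile lay between 413 and 440 on sham arrays and between 342 and 349 on DJB arrays, and 71.5% to 74.6% of probes were well above background. The number of arrays limits the precision. Probes detected well above background on all arrays of either group, with a minimum of 2 values in each, numbered 64408 and were fitted with limma 3.58.1 (R 4.3.3). On simulated data for DJB against sham over 64408 probes, 184 of 200 changed probes were recovered and 0 unchanged probes were called.

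Probes were named by the fold changes printed in the study's lists of most changed transcripts, used only as keys. For 20 mRNAs and 20 lncRNAs, the ratio of group means, taken on the linear scale from the authors' log2 values, met 1 probe within a relative error of 3.65e-09, and the next probe was at least 7.35e-05 away, so the names rest on the same data. The members and lists were chosen with earlier results of these data known. The rule named Me1 and Me3, any other probe matched to a malic enzyme, list genes with a matched probe and the 5 named probes most like each member; with no transcript or protein sequences here, probes could not be matched to genes, so the 2 closest probes per member are given instead, 1 of which matched a listed lncRNA, and the gene lists beyond those named, the cell type markers and Me2 were not analysed here. Alternatives covered scaling, background correction, flags, pixel summary, dim-probe filter, test, blocks and each mouse left out. Array position as a block, the word TCTCCC and the comparison with flagged spots kept for every probe were chosen after seeing the data.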

Additional observations from a re-analysis of the deposited data

How the results depend on the processing

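Under no scaling, spike-in scaling, quantile normalization, normexp, the authors' log2 values, flags kept for all probes and the median pixel, the difference between DJB and sham stayed between 3.86 and 4.30 for Me1, between -3.10 and -2.46 for Me3 and between 6.62 and 6.97 for their ratio, each less than 1 SD from the values reported. Leaving out 1 mouse at a time gave ranges of 4.06 to 4.49, -3.09 to -2.44 and 6.52 to 7.57. The differences within an array position that moved by more than 1 SD were 4.95 and 3.68 for Me1, -1.28 and -4.19 for Me3, and 5.11 and 9.14 for the ratio.

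Over all probes, 830 were called higher and 1482 lower, so that 64.1% of all calls were lower. With no scaling these were 399 and 3255 (89.1% lower, median difference -0.21), with spike-in scaling 338 and 3940 (92.1% lower, median difference -0.28), with normexp 357 and 677, and with no minimum fold change 14238 and 9321 (39.6% lower). The cause was not tested. Leaving out single mice gave 774 to 926 higher and 1391 to 1662 lower. With the replicate number as a block, 845 were higher and 1469 lower. Same-numbered mice did not deviate together over the probes, with correlations of -0.02 to 0.01, so no pairing by number was seen. A pairing with a small effect would not be seen this way. With array position as a block, 813 were higher and 1466 lower. With no filter 1034 and 1695 of 90728 probes were called, and the methods' t-test gave 829 and 1480 at an unadjusted p under 0.05 and 725 and 1428 after adjustment.

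Of the 217 probes with TCTCCC at bases 1 to 10, 53 were called lower. Over all settings the count ran from 39, without sham mouse 1, to 107, with no minimum fold change. The median difference ran from -0.73 with spike-in scaling to -0.28 with normexp, and in every setting it was below the median of all probes.

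Leaving out the flagged Me3 spots gave no value, because no sham value remains. Slide as a block could not be fitted, since each group lies on a slide of its own. The alternatives for the gene lists and for all matched probes were not run, because probes could not be matched to genes.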
